A study of Mus musculus with 2 samples.

Results

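Described here are 8 genes, named the glutamate and GABA uptake genes. All but Slc1a4, which carries neutral amino acids, clear neurotransmitter from the extracellular space or handle the glutamine made from it. The 8 genes were chosen by name as Slc1a2, Slc1a3, Slc1a1, Slc1a4, Glul, Slc6a11, Slc38a1 and Slc38a3. Every array probe carrying one of these gene names was taken. That gave 17 probes for 8 of the 37074 gene names on the array, and each of the 8 genes had at least 1 probe well above background. The arrays compare striatal RNA from WT and Cx30 KO mice, taken on day 1 after MPTP, a toxin that kills dopamine neurons. Cx30, encoded by Gjb6, is a connexin that forms gap junctions between astrocytes.

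There was 1 single-colour array for each genotype, and each was hybridised with RNA pooled from the striata of 2 mice. All mice were male, 8 weeks old, and had been injected 4 times with MPTP, at 20 mg/kg and 2 h apart. The strain label is C57BL/6J for WT and Cx30-LacZ for Cx30 KO, and the methods describe the WT mice as non-mutant offspring of heterozygous parents. The deletion is present in every cell and throughout life, so the comparison is not limited to astrocytes or to the time after MPTP. Both groups received MPTP, and arrays of mice given NS were not analysed here. With 1 pool for each genotype there is no spread between mice and no test, so all differences below are descriptions of 2 arrays. In bulk tissue, fewer cells of a type and less RNA in each cell cannot be told apart.

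Astrocytes take up most of the glutamate released at synapses through SLC1A2 (GLT-1) and SLC1A3 (GLAST). Inside the astrocyte, glutamine synthetase, encoded by Glul, joins glutamate to ammonia. The resulting glutamine leaves through transporters such as SLC38A3 (SNAT3) and enters neurons through others such as SLC38A1 (SNAT1), where it is turned back into glutamate or into GABA. GABA is removed by transporters on neurons and on astrocytes, among them SLC6A11 (GAT-3), found mainly on astrocytes. Most neurons of the striatum release GABA, while its glutamate comes from axons whose cell bodies lie in the cortex and thalamus.

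The array reads each gene through probes of 60 bases. The first 30 bases of 10 probes are shown, for the genes with the highest and lowest ratios, Slc1a2 and Slc6a11, and for Slc1a3 and Slc38a1, which were read at several stretches. Each line gives the gene, the base of the transcript at which the probe starts, the transcript and the position of the whole probe in the mm9 build.
Slc1a2 base 2142 of NM_001077514, chr2:102617706-102617765, plus strand: aaatgaccaagacgcagtccatttacgacg
Slc1a2 base 29 of ENSMUST00000128622, chr2:102559160-102559219, plus strand: ttctcttgaagtccaaactttgtccactga
Slc1a3 base 3523 of NM_148938, chr15:8584747-8584806, minus strand: tctcttgacaaatcattcaaaagtctcatc
Slc1a3 base 1140 of ENSMUST00000153455, chr15:8630573-8630632, minus strand: cacttgaggctagaattttagtcttgtctt
Slc1a3 base 190 of ENSMUST00000126747, chr15:8659339-8659398, minus strand: gggcacttgtgttctttttatggccgtatt
Slc6a11 base 3699 of NM_172890, chr6:114199514-114199573, plus strand: acagatccctgatgtctgtcactatagaca
Slc38a1 base 2748 of NM_134086, chr15:96406793-96406852, minus strand: tggaaacacgatcaacagttgtcttcactt
Slc38a1 base 7482 of NM_134086, chr15:96402059-96402118, minus strand: tctagagtccagtgtgtcttagatccccat
Slc38a1 base 1786 of NM_134086, chr15:96416032-96417323, minus strand: cacaccaaagtatgtcaccttcaactcaaa
Slc38a1 base 2753 of BC066815, chr15:96444136-96444195, minus strand: cctacagctgataaacatcttcagtgaagc
The 60 bases of the Slc38a1 probe at base 1786 cover 1292 bases of the genome, so that probe joins sequence from either side of an intron. Whether the other probes lie in coding sequence or in a UTR is not given in the sources used here.

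The 8 genes differed little between the genotypes. A gene is represented by its brightest probe that was well above background, and its value is the log2 ratio of Cx30 KO over WT after each array was scaled to its 75th percentile. The median log2 ratio of the 8 genes was 0.0042, beside 0.029 over all 22043 genes detected. Their log2 ratios ran from −0.42 for Slc6a11 to 0.17 for Slc1a2. In 7 of the 8 genes the log2 ratio lay within 0.25 of 0, and 0.25 is the SD of log2 ratios between probes of one gene, taken over 7137 genes with several probes. The same held for 60.3% of all genes.

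No member gene (0 of 8) met the study's criteria in either direction. A gene counts as higher when its ratio reaches 1.5 and its Z-score 2.0, and as lower when the ratio is 0.66 or less and the Z-score −2.0 or less. The Z-score sets a log2 ratio against the ratios of probes of like brightness. Over all genes, 3.38% met the criteria as lower in Cx30 KO and 2.39% as higher. Among the 15 member probes well above background the count was also 0, beside 2.93% of all probes lower and 2.08% higher. With 8 genes at such shares, a count of 0 is near the background and sets the uptake genes apart in no way. The 15 log2 ratios had a median of −0.0035, beside 0.039 over all probes, and 5 of them were smaller in size than 0.047, the SD between spots of the same probe on these arrays.

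**Figure D1:**
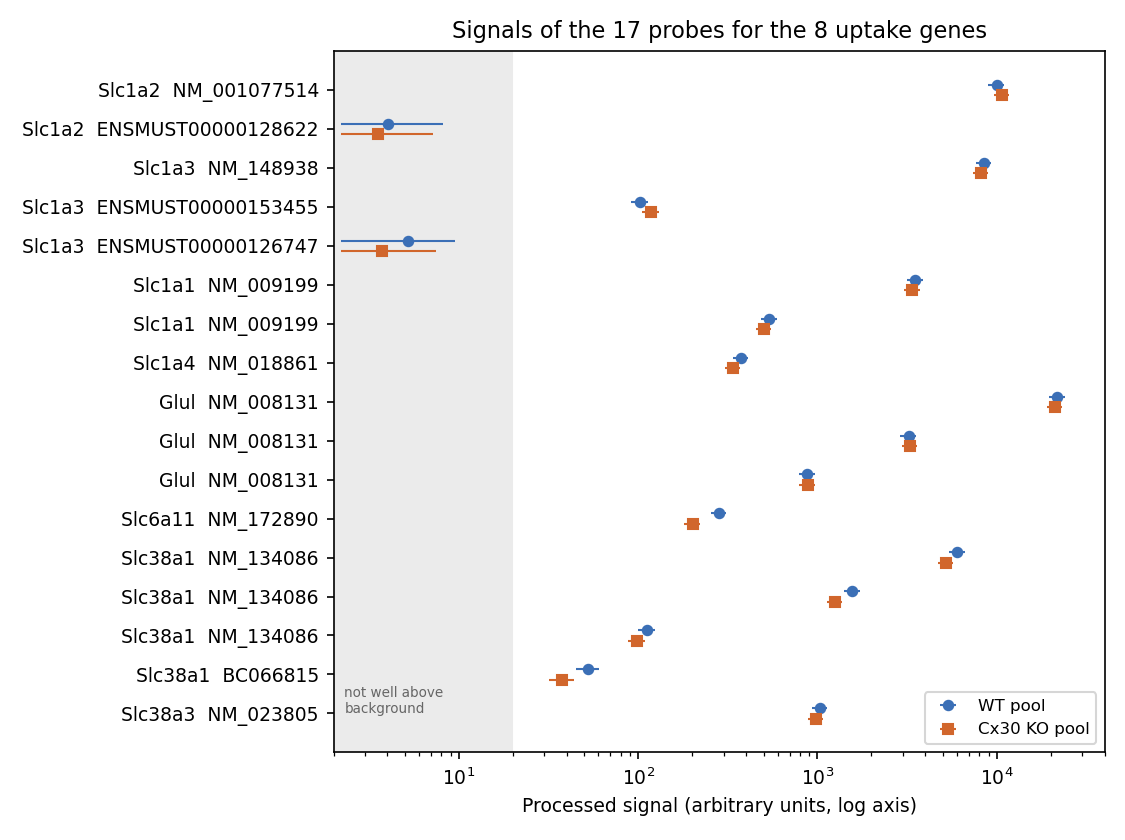
Processed signal (arbitrary units, log axis) of the 17 probes for the 8 uptake genes, 1 row for each probe with its transcript. Circles are the WT pool and squares the Cx30 KO pool, bars are the error given by the scanner software (cut off at the left edge for the dimmest probes), and the grey zone ends at 19.8, the lowest WT signal that was well above background. Circle and square lie close together in nearly every row, the gap is widest at Slc6a11 and the dimmest Slc38a1 probe among detected probes, and 2 probes lie in the grey zone on both arrays.

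Among the glutamate transporters, Slc1a2 encodes GLT-1, the main glutamate transporter of astrocytes. Its probe at base 2142 read 9981 ± 998 in WT against 10657 ± 1066 in Cx30 KO, and ± is the uncertainty that the scanner software gives each spot. The log2 ratio was 0.17 ± 0.20, with the 2 errors combined, and the Z-score was 0.69. The other Slc1a2 probe, at base 29 of another transcript, read 4.05 in WT and 3.56 in Cx30 KO and was not well above background on either array. Signals are printed before scaling, and because the 75th percentile was 401.2 in WT and 381.8 in Cx30 KO, equal signals correspond to a log2 ratio slightly above 0. Slc1a2 rests on a single probe, whose log2 ratio is smaller than its error.

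Slc1a3 encodes GLAST, the second astrocyte glutamate transporter. At base 3523 of NM_148938 it read 8481 ± 848 in WT and 8138 ± 814 in Cx30 KO, which after scaling is a log2 ratio of 0.012 ± 0.20. The probe at base 1140 of ENSMUST00000153455 was dim, at 102 ± 11 in WT against 118 ± 12.3 in Cx30 KO, for a log2 ratio of 0.28 ± 0.22. The probe at base 190 of ENSMUST00000126747 read 5.22 and 3.73, below the level that counts as well above background. The 2 detected probes thus differ by 0.27 on the log2 scale, and the ratio of the dim one stands a little further from 0 than the SD between probes.

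Slc1a1 encodes EAAC1, a glutamate and cysteine transporter found mainly on neurons. Its probe at base 3589 read 3517 ± 352 in WT against 3385 ± 339 in Cx30 KO, which gave a log2 ratio of 0.016 ± 0.20. Its probe at base 2273 of the same transcript read 538 ± 54 in WT against 502 ± 50.4 in Cx30 KO, which gave a log2 ratio of −0.028 ± 0.20. Both log2 ratios are smaller in size than the SD between spots of a probe.

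Slc1a4 encodes ASCT1, a member of the same family that carries serine, alanine and other neutral amino acids rather than glutamate. Its only probe read 374 ± 37.8 in WT against 338 ± 34.1 in Cx30 KO, which gave a log2 ratio of −0.076 ± 0.21. This is also the only member probe that shares a run of 20 bases or more with probes of other genes. The shared stretch is rich in G and T, in capitals below with its flanks, and runs of at least 20 bases of it recur in probes of 6 other gene names, so the Slc1a4 value is uncertain.
Slc1a4 probe from its base 24, chr11:20202615-20202674 for the whole probe, minus strand: atcaaGTGTGTGTGTGTATGTGTGTGcttt

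Glul encodes glutamine synthetase, which in the brain is found mainly in astrocytes. Its 3 probes sit at 3 places of one transcript. The probe at base 2718 read 21786 ± 2179 in WT against 21043 ± 2104 in Cx30 KO, which gave a log2 ratio of 0.021 ± 0.20. The probes at base 1062 (3225 ± 322 in WT and 3277 ± 328 in Cx30 KO) and base 408 (877 ± 87.8 and 881 ± 88.2) had log2 ratios of 0.095 and 0.078. All 3 ratios lie within 0.074 of each other, so different stretches of the Glul transcript gave nearly the same ratio.

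Slc6a11, the astrocyte GABA transporter GAT-3, had the lowest ratio of the 8 genes. Its single probe read 282 ± 28.6 in WT and 201 ± 20.6 in Cx30 KO, a ratio of 0.749 and a log2 ratio of −0.42 ± 0.21. The value exceeds its error and the SD between probes, but with a Z-score of −1.13 it does not meet the criteria. Of all genes, 22% had a log2 ratio at least as far from 0. With one probe, no other stretch of the Slc6a11 transcript was read.

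Slc38a1 encodes SNAT1, which supplies glutamine to neurons, including neurons that release GABA. It had the most probes of the 8 genes, and all 4 were lower in Cx30 KO. The probe at base 2748 read 6021 ± 602 in WT against 5195 ± 520 in Cx30 KO, which gave a log2 ratio of −0.14 ± 0.20. The probe at base 7482 read 1565 ± 157 and 1252 ± 125, a log2 ratio of −0.25 ± 0.20.

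The Slc38a1 probe that spans an intron read 112 ± 12.1 in WT against 98.5 ± 10.7 in Cx30 KO, which gave a log2 ratio of −0.11 ± 0.22. The dimmest, from BC066815, read 52.6 ± 7.54 and 37.8 ± 6.06, a log2 ratio of −0.41 ± 0.31. The 4 probes were lower under each of the 4 other normalisations tried too. Among these, quantile normalisation and the authors' own table of values gave nearly the same values. None of the probes met the criteria, and they are readings of the same 2 pools, not replicates. Slc38a3 encodes SNAT3, which carries glutamine out of astrocytes. Its single probe read 1030 ± 103 in WT against 978 ± 97.9 in Cx30 KO, which gave a log2 ratio of −0.0035 ± 0.20.

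By sign, 4 of the 8 genes were higher and 4 lower in Cx30 KO. For genes this close to 0 the sign depends on the scaling: with each array scaled by its median, 7 were lower and 1, Slc1a2, was higher. The ratios were also taken under 5 alternatives, which were other normalisations or the mean of a gene's probes. Slc1a2 stayed above 0 and Slc1a4, Slc6a11 and Slc38a1 stayed below 0 under all 5. Slc1a3, Slc1a1, Glul and Slc38a3 crossed 0 in at least 1 of them. The mean of a gene's probes could not move Slc1a2, Slc1a4, Slc6a11 or Slc38a3, which had 1 detected probe each. The probes of the 8 genes lie on 7 chromosomes and none (0 of 17) is on chromosome 14, which carries Gjb6.

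A wider list of 31 other genes for glutamate, glutamine and GABA handling was set beside the 8. Of these, 29 were detected, 16 lower and 13 higher in Cx30 KO, and the median log2 ratio was −0.054. One met the criteria as lower, Slc38a5, and 1 as higher, Slc17a7, shares near the 3.38% and 2.39% of all genes. The other glutamate transporters, Slc1a6 and Slc1a7, also had log2 ratios above 0, which made 5 of 5 higher with a median of 0.17. The count was 3 of 5 with each array scaled by its median, and 4 of 5 with normexp or with probes averaged. Over all genes, 12029 of 22043 were higher. Of the 5, 3 lay within 0.25 of 0. Slc1a7 was well above background in Cx30 KO alone, at 20.8 ± 5.08 in WT against 28.7 ± 5.01, a log2 ratio of 0.53 ± 0.43.

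The GABA transporters are the nearest relatives of Slc6a11, and 3 of 4 were detected. All 3 had log2 ratios below 0, with a median of −0.33, and 2 of 3 when a gene's probes were averaged.

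Among 11 genes of the SLC38 family, all detected, 7 were lower and 4 higher in Cx30 KO, and the median log2 ratio was −0.012. Slc38a2, or SNAT2, is a close relative of SNAT1. It read 1810 ± 181 in WT against 1415 ± 142 in Cx30 KO, which gave a log2 ratio of −0.28 ± 0.20, and its dimmer probe gave −0.22 ± 0.33. Slc38a1 and Slc38a2 thus lay below 0 with all their probes, without meeting the criteria.

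Slc38a5 encodes SNAT5, a glutamine transporter that works like SNAT3, and it stood far from the rest of the family. Its single probe (base 1788 of NM_172479, chrX:7857226-7857285 in mm9) read 597 ± 59.9 in WT and 116 ± 12.3 in Cx30 KO. The ratio was 0.203, a log2 ratio of −2.30 ± 0.21 with a Z-score of −6.14. Over all settings tried its log2 ratio lay between −2.34 and −1.79. Of 6 endothelial markers, 4 were lower and 2 higher in Cx30 KO, and 1, Flt1, met the criteria as lower. Their summed scaled signal was 17.3 for WT against 14.9 for Cx30 KO, but 8.75 against 10.4 without Flt1, a sum taken after the values were seen. Their part in the Slc38a5 value was not tested.

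The 11 enzymes of glutamate, glutamine and GABA metabolism, Glul among them, had a median log2 ratio of 0.016, with 5 lower and 6 higher and none (0) meeting the criteria. With each array scaled by its median, 8 were lower and 3 higher, at a median of −0.031. The cystine-glutamate exchanger genes Slc7a11 and Slc3a2 were both below 0, with a median of −0.23, but Slc3a2 was close to 0. Its log2 ratio was −0.054 ± 0.20 at its brightest probe, and −0.07 and 0.033 at its other probes. At its brightest probe Slc7a11 had a log2 ratio of −0.40 ± 0.22. A dimmer Slc7a11 probe was well above background in WT alone, at 42.8 ± 6.64 against 15.1 ± 4.75, and was at least 2.35-fold lower in Cx30 KO, but with a Z-score of −1.72 it did not meet the criteria.

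**Figure D2:**
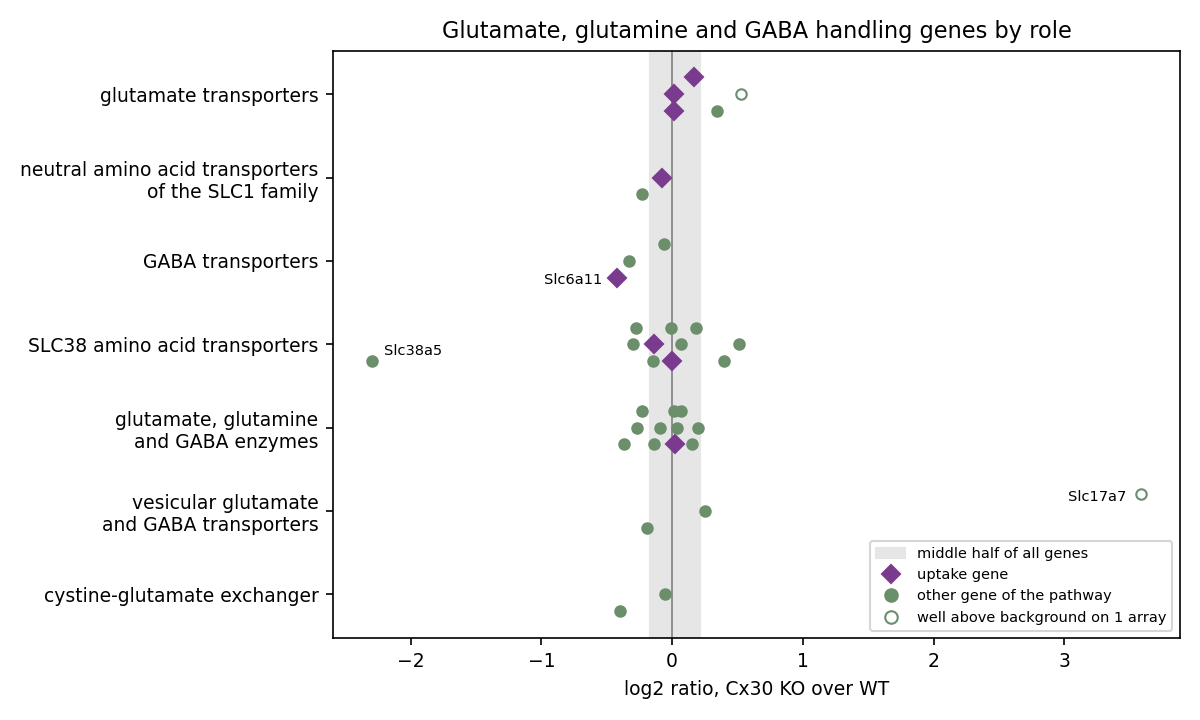
Log2 ratio of Cx30 KO over WT (horizontal axis) for the detected genes of glutamate, glutamine and GABA handling, grouped by role (vertical axis). Diamonds are the 8 uptake genes, circles the other genes, open symbols genes well above background on 1 array, and the grey band runs from −0.17 to 0.21, the quartiles of all genes. All points lie within 1 of 0 except 2: Slc38a5 at −2.30 and Slc17a7 at 3.59.

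Slc17a7 encodes VGLUT1, which loads glutamate into synaptic vesicles and marks neurons of the cortex. It read 20.8 ± 4.67 in WT, not well above background, and 238 ± 24.1 in Cx30 KO. On the scale of the processed signals the ratio was 12.1, a log2 ratio of 3.59 ± 0.36. The WT signal lay above the floor of 19.8, so 12.1 is a plain ratio and not a lower bound. The ratio depends on the scale, and after normexp background correction with an offset of 50 it was 3.9. In the other settings that kept the gene it lay between 11.6 and 12.1. The other cortical neuron markers were higher too. In all, 6 of 6 had higher signals in Cx30 KO and 5 met the criteria, at a median log2 ratio of 3.24. Their summed signal, in multiples of the array's 75th percentile, was 0.435 for WT against 3.64 for Cx30 KO. Slc17a7, Neurod6 and Emx1 were among those not well above background in WT. The part of the cortical marker shift in the values of the 8 uptake genes was not tested.

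Markers of the tissue and of other cells were measured in the same way. Gjb6 checks the labels: it read 1788 ± 179 in WT and 111 ± 11.6 in Cx30 KO, a ratio of 0.0651, and its second probe was at least 4.33-fold lower in Cx30 KO. Whether these probes lie within the deleted sequence is not given in the sources used here. The striatal neuron markers were well above background on both arrays in 9 of 9, among them Drd1 at 19972 in WT against 19702 in Cx30 KO, and the median log2 ratio was −0.16.

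Several of the uptake genes are expressed mainly by astrocytes, so 12 astrocyte markers give the nearest comparison. Their median log2 ratio was −0.15, with 9 lower and 3 higher, and 11 lower and 1 higher with each array scaled by its median. One met the criteria, Aqp4, the astrocyte water channel, which read 889 ± 89 in WT against 438 ± 43.9 in Cx30 KO (log2 ratio −0.95). Atp1b2 fell just short, with a Z-score of −2.76 and a ratio that rounds to 0.66. The summed scaled signal of these markers was 540 in WT and 503 in Cx30 KO, beside 128 and 131 for the 8 uptake genes. Aldoc, by far the brightest marker at 117041 in WT against 106181 in Cx30 KO, weighs most in the marker sum. The part of the astrocyte marker shift in the values of the uptake genes was not tested.

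Oligodendrocyte markers were lower in Cx30 KO in 7 of 7, with a median log2 ratio of −0.73, and 5 met the criteria. Their summed scaled signal was 364 in WT and 232 in Cx30 KO. Microglia markers were lower in 7 of 8, with a median of −0.52, and 4 met the criteria. Their summed scaled signal was 227 for WT and 220 for Cx30 KO, but 77.8 and 56.3 without Itgam, the 1 marker that was higher, which was left out after the values were seen. Of the choroid plexus markers, 4 of 5 were detected, with a median of −0.30 and a summed scaled signal of 4.02 and 3.51, and 1, Ttr, met the criteria as lower. The part of these cell types in the values of the uptake genes was not tested, and the ratios above were not adjusted for them.

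**Figure D3:**
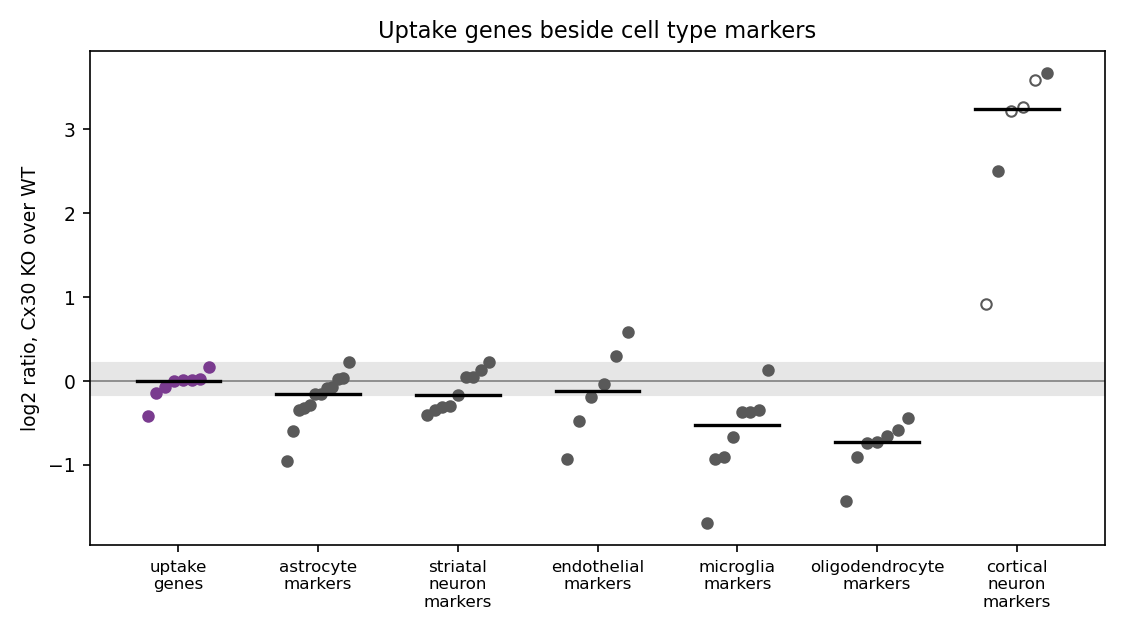
Log2 ratio of Cx30 KO over WT (vertical axis) of the 8 uptake genes and of marker genes of 6 cell types (horizontal axis). Each point is a gene, open points are genes well above background on 1 array, black lines are medians, and the grey band runs from −0.17 to 0.21, the quartiles of all genes. The uptake genes centre on 0.0042, while oligodendrocyte markers centre on −0.73 and cortical neuron markers on 3.24.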

How the data were processed

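Total striatal RNA of 2 mice was pooled for each genotype, labelled with Cy3 and hybridised to a 60K array of 60-mer probes, 1 array for each pool. The authors read the spots with Agilent Feature Extraction, version 9.5.1.1 in the methods and 10.7.1.1 in the file header. The processed signals they deposited are linear intensities in arbitrary units, corrected for background and spatial trends within each array and not normalised between arrays. Both arrays share a slide and a scan. The authors also deposited a table of normalised intensities, whose sorted columns differ by at most 0.0194%, and it served as an alternative. In WT, 100% of its values lay within 1% of the quantile-normalised values, so it is hardly separate from quantile normalisation.

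Control spots and outlier spots were left out, the log2 intensities of repeated spots were averaged, and the 75th percentile of each array was subtracted. The percentiles were 401.2 in WT and 381.8 in Cx30 KO. A probe was taken as well above background where the software marked 50% or more of its spots, and as detected where this was so on 1 array or both. Of 56605 probes, the WT array had 32019 well above background and the Cx30 KO array 32961, with 0 saturated. The lowest such signals, 19.8 and 17.4, set the floor for genes well above background on 1 array only. Their fold is the signal of the bright array over the larger of this floor and that gene's signal on the other array. It is given as "at least" where the floor is the larger. The scanner errors of the arrays were propagated to the log2 ratio, and they do not include differences between mice. All member probes were printed in 1 spot each. The spread between spots comes from 298 probes printed repeatedly. Precision is limited by the number of arrays.

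The Z-score used the 1000 probes nearest in mean log2 signal for its mean and SD, since the sources used here do not name the set of probes. Calculations used Python 3.11.15 with numpy 2.4.6 and pandas 2.3.3, and limma 3.58.1 in R 4.3.3 for normexp. The scaling, the Z-score and the calls were tested on simulated data, made from probes well above background with changes well past the ratio limits. Dim probes, the "at least" folds and the choice of a gene's probe were not tested in this way. The 8 genes and all lists were chosen with earlier results of these data known. Named genes are the 8 genes with every probe, other listed genes that met the criteria or had a bound past a ratio limit, Slc38a2, Gjb6 and defining markers. Slc1a6, Slc1a7, Slc7a11, Slc3a2, Aldoc and Atp1b2 were named after their values were seen. Gene names are those of the array design. Values of some other genes that the rule names are not reported here.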

Additional observations from a re-analysis of the deposited data

How the results depend on the processing

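The number of uptake genes meeting the criteria was 0 under all 10 alternatives, and that of their probes was 0 under the 9 that apply to probes. These were quantile normalisation, scaling by the array median, normexp with an offset of 50 and quantile normalisation, the authors' value table, no filter on dim probes, probes well above background on both arrays, a Z-score from the 200 nearest probes or from all of them, limits on the ratio of 2 and 0.5, and, for genes, the mean of a gene's probes. Some of these could not change a count of 0. Ratio limits of 2 and 0.5 are stricter than the main ones. All detected member probes were well above background on both arrays, so that filter left their values unchanged. Without a filter each uptake gene kept the same brightest probe. The authors' value table nearly repeats quantile normalisation. The median log2 ratio of the 8 genes lay between −0.043 (array median) and 0.0042. The number of other listed genes meeting the criteria was 2 throughout, except that it was 1 when probes had to be well above background on both arrays, which leaves out Slc17a7. Over all genes, 746 lower and 526 higher met the criteria among 22043. With both arrays above background these became 503 and 333 among 20338 genes, and without a filter 906 and 568 of 37074. They were 457 and 503 with a Z-score over all probes, and 578 and 401 with normexp. With ratio limits of 2 and 0.5 they were 427 and 340, and those stricter limits could only take genes out. The filters changed which genes were counted. The cause of the other moves was not tested. Under the 5 alternatives for the ratio, Slc6a11 ranged from −0.46 to −0.35, Slc38a1 from −0.23 to −0.12 and Slc1a2 from 0.12 to 0.18. The mean of a gene's probes could not move Slc6a11 or Slc1a2, which had 1 detected probe each. No paired analysis was possible because each genotype has 1 array, and for the same reason no array could be left out. At signals near background, as for the dimmest Slc38a1 probe, the software error is widest, and changes below it cannot be seen on these arrays.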
